A study of Homo sapiens with 2 samples.

Results

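The 10 genes described here encode receptor tyrosine kinases: the FGF receptors FGFR1, FGFR2, FGFR3 and FGFR4, the HGF receptor MET, the ephrin receptor EPHA2, the receptors IGF1R and INSR of insulin-like growth factors and insulin, the GAS6 receptor AXL and the collagen receptor DDR1. They were taken by symbol, and all 10 were found among the 55771 gene symbols listed for both libraries, each in 1 row. The ANGPTL4 library was made from BFTC 905 cells, an established human line from a urothelial carcinoma of the bladder, that stably carried a plasmid expressing ANGPTL4, a secreted inhibitor of lipoprotein lipase. The control library was made from the same line stably carrying the empty plasmid pcDNA3.1. Both lines were kept under G418 selection and grown in RPMI-1640 with FBS, and total RNA was sequenced. Whether each line was 1 clone or a mixture of clones is not given in the sources used here. There was 1 library per group, so every value below is a comparison of 2 libraries, with no replicate check and no p-value.

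A receptor tyrosine kinase spans the plasma membrane once. Binding of its ligand outside the cell brings receptors together, and the kinase domains inside then phosphorylate one another and recruit adaptor proteins that lead to the RAS-ERK and PI3K pathways. In urothelium the family is best known for FGFR3, which is often activated by mutation in bladder cancer, while MET, AXL and EPHA2 are known for their roles in the movement and invasion of carcinoma cells.

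Levels are given in RPKM, a read count divided by exon length and by library size, as the authors deposited it. The steps between RPKM values corresponded to 3233596 reads in the ANGPTL4 library and 6572767 reads in the control library, a 2.03-fold difference in depth. Whole reads could be worked out for all 10 receptors, which together held 2699 reads in the ANGPTL4 library and 6651 in the control library. All 95% intervals are exact, come from those reads and cover counting error only, not the differences between cultures or preparations. ANGPTL4 itself was at 91.2 RPKM in the ANGPTL4 library and 3.92 RPKM in the control library. The 13 protein genes of the mitochondrial genome took up 8.71% of the ANGPTL4 library and 5.11% of the control library. The part of this alone in the receptors' RPKM was not tested.

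The cells carried epithelial markers, and the markers of other cell types were low or at 0. Of 15 urothelial and epithelial markers, 13 reached 1 RPKM in at least 1 library. Among these 9 had a log2 ratio below 0, where 64.4% of all genes that reached 1 RPKM did. By the mean of the 2 libraries KRT17 was highest, at 428.7 RPKM in the ANGPTL4 library and 554.1 RPKM in the control library, followed by KRT5 at 468.9 RPKM in the ANGPTL4 library and 434.2 RPKM in the control library. EPCAM was at 53.4 RPKM in the ANGPTL4 library and 68.0 RPKM in the control library. The part of these marker differences in the receptors' values was not tested. Of these markers UPK3A was listed at 0 in both libraries and KRT20 was at 0.168 RPKM in the ANGPTL4 library and 0 in the control library. The 10 fibroblast markers summed to 4.73 RPKM in the ANGPTL4 library and 4.79 RPKM in the control library. Of these COL1A1 was at 4.06 RPKM in the ANGPTL4 library and 4.14 RPKM in the control library, and DCN, LUM, FAP and POSTN were at 0 in both. Endothelial markers summed to 1.93 RPKM in the ANGPTL4 library and 1.70 RPKM in the control library, with TEK, TIE1 and CLDN5 at 0 in both. Leukocyte markers summed to 1.15 RPKM in the ANGPTL4 library and 1.13 RPKM in the control library, with CD3E and MS4A1 at 0 in both. Most of this was CD14, at 1.15 RPKM in the ANGPTL4 library and 0.968 RPKM in the control library.

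The order of the 10 receptors by level was identical in the 2 libraries: DDR1 was highest, followed by MET, EPHA2, IGF1R, AXL, FGFR3, FGFR4, FGFR2, INSR and FGFR1. The highest and lowest levels were far apart, with DDR1 at 31.1 RPKM in the ANGPTL4 library and 34.5 RPKM in the control library, and FGFR1 at 0.390 RPKM in the ANGPTL4 library and 0.671 RPKM in the control library. Neighbours in that order were compared by the exact 95% interval of the ratio of their levels. In the ANGPTL4 library this interval included 1 for MET over EPHA2 (1.11, 0.958 to 1.29), IGF1R over AXL (1.16, 0.978 to 1.38) and FGFR4 over FGFR2 (1.45, 0.921 to 2.29), so the order within these pairs is not settled at this depth. In the control library it included 1 for DDR1 over MET (1.06, 0.989 to 1.13) and for IGF1R over AXL (1.09, 0.977 to 1.21). All other neighbours differed beyond counting error, among them FGFR3 and FGFR4, with FGFR3 higher by 2.70-fold (1.86 to 3.98) in the ANGPTL4 library and 1.33-fold (1.08 to 1.64) in the control library.

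**Figure D1:**
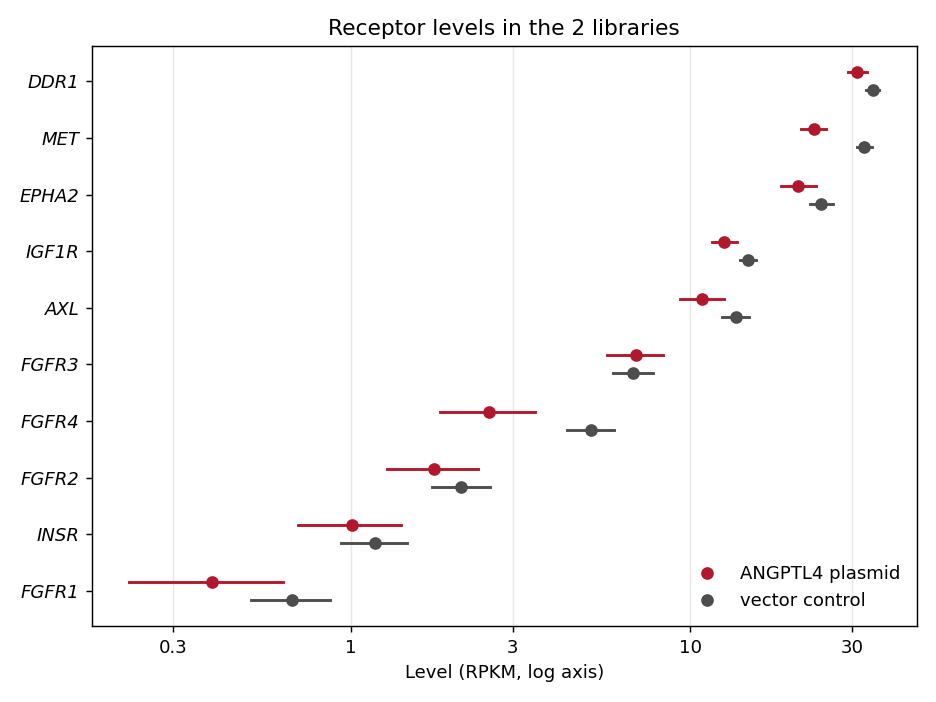
Level of each receptor in RPKM (log axis) in the ANGPTL4 plasmid library (red, upper point) and the vector control library (grey, lower point); bars are exact 95% counting intervals, 1 library per group. The order from DDR1 to FGFR1 is the same in both, and the widest gaps between intervals are those of MET (23.1 RPKM with the ANGPTL4 plasmid, 32.6 RPKM with the vector) and FGFR4 (2.56 RPKM with the ANGPTL4 plasmid, 5.10 RPKM with the vector).

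Most of the receptors, like most genes, had lower values in the ANGPTL4 library, and only FGFR4 passed the 1.5-fold size. Differences are given as log2 ratios of RPKM + 1 in the ANGPTL4 library over RPKM + 1 in the control library, a scale that understates the differences of low genes, and as plain RPKM ratios. Of the 10, 9 reached 1 RPKM in at least 1 library and are called measured. FGFR1 did not. Among the 9 measured receptors 8 had a log2 ratio below 0, where 64.4% of all 11801 measured genes did. The median log2 ratio of the 9 was -0.22, against -0.11 for all measured genes. At least 1.5-fold lower on this scale was 1 receptor, FGFR4, against 9.25% of all measured genes, and none was at least 1.5-fold higher, against 3.08% of all. At least 2-fold differences on this scale were found for 0 receptors, against 1.19% of all measured genes on the higher side and 1.92% on the lower side, or 3.11% in either direction. Counted by intervals of the plain RPKM ratio, 6 of the 10 receptors had an interval wholly below 1, none had one wholly above 1, and 4 had an interval that included 1. Among the 9557 measured genes whose reads could be settled, 27.8% had an interval wholly below 1 and 8.30% had one wholly above 1. The middle gene of all measured ones was itself 1.08-fold lower on the RPKM + 1 scale. Relative to that factor the interval of the plain ratio was wholly below 1 for 2 of the 10, against 18.4% of those 9557 genes. These 2 were FGFR4 and MET. It was wholly above 1 for none, against 14.5%. The factor and the intervals are thus on different scales, and centring on the middle plain ratio was not done. In bulk RNA, fewer cells with a transcript and less transcript per cell cannot be told apart.

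**Figure D2:**
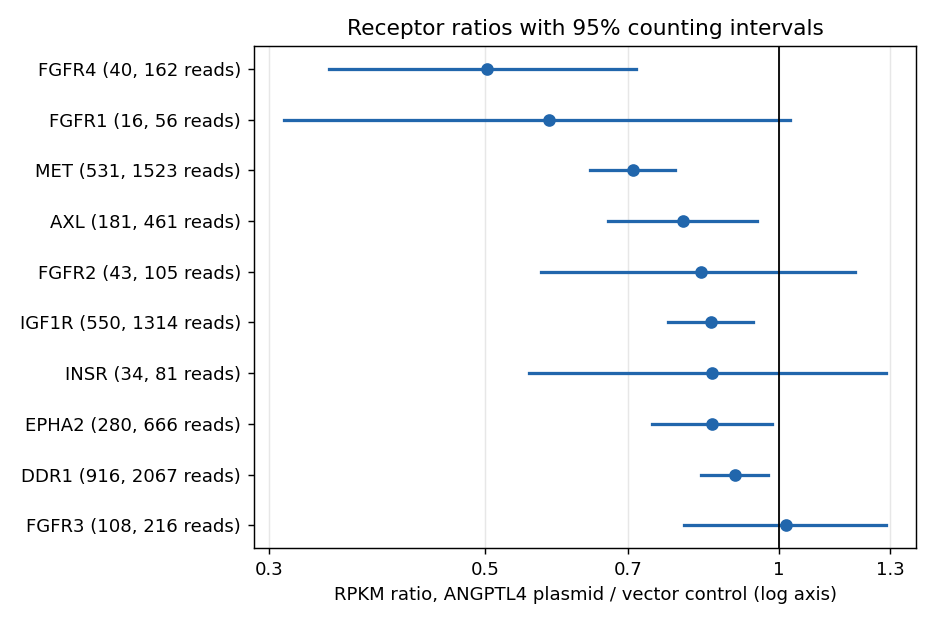
RPKM ratio of each receptor, ANGPTL4 plasmid library over vector control library (log axis), with exact 95% counting intervals and the reads in the ANGPTL4 and control libraries beside each name. FGFR4 (0.502) and MET (0.709) lie farthest below 1 among receptors whose interval leaves out 1, and FGFR3 (1.02) lies at 1.

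FGFR4 had the largest difference of the 10. This receptor, which with the co-receptor KLB responds to the hormone-like FGF19, is annotated on chromosome 5 from 176513887 to 176525145 (hg19), with the value taken over the annotated exons. FGFR4 was at 2.56 RPKM in the ANGPTL4 library (95% interval 1.83 to 3.49, 40 reads) and 5.10 RPKM in the control library (4.35 to 5.95, 162 reads). The ratio was 0.502 (0.346 to 0.713), a 1.99-fold lower level, and the log2 ratio was -0.78, or -0.67 relative to the median gene. The 2 level intervals did not overlap. On the scale with a pseudocount of 5 RPKM the log2 ratio was -0.42, under the 1.5-fold size.

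FGFR3, the family member with the highest level in these cells, did not share that difference. It lies on chromosome 4 from 1795034 to 1810599 (hg19). FGFR3 was at 6.91 RPKM in the ANGPTL4 library (5.67 to 8.34, 108 reads) and 6.80 RPKM in the control library (5.92 to 7.77, 216 reads). Its ratio was 1.02 with an interval of 0.799 to 1.29, and its log2 ratio of 0.02, or 0.13 relative to the median gene, was the one value above 0 among the 9 measured receptors. Counting error thus left room for a level about 1.29-fold higher or 0.799 times as high. The 3 rows named as FGFR3 pseudogenes were at 0 in both libraries.

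The 2 remaining FGF receptors were low. FGFR2, on chromosome 10 from 123237848 to 123357972, is the receptor of FGF7 and FGF10 in its epithelial splice form. It was at 1.76 RPKM in the ANGPTL4 library (1.28 to 2.37) and 2.12 RPKM in the control library (1.73 to 2.56), with a ratio of 0.832 (0.570 to 1.20) and a log2 ratio of -0.063 relative to the median gene. Its epithelial and mesenchymal splice forms share 1 row and were not separated. FGFR1, on chromosome 8 from 38268656 to 38326352, was at 0.390 RPKM in the ANGPTL4 library (0.223 to 0.633, 16 reads) and 0.671 RPKM in the control library (0.507 to 0.871, 56 reads). Its log2 ratio was -0.15 relative to the median gene. The intervals of both ratios included 1, for FGFR1 with 0.311 to 1.03, so no difference was detectable at this depth.

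Taken by share, FGFR3 made up more and FGFR4 less of the family in the ANGPTL4 library. The summed level of the 4 FGF receptors was 11.6 RPKM in the ANGPTL4 library and 14.7 RPKM in the control library. FGFR3 was 59.4% of that sum in the ANGPTL4 library and 46.3% in the control library. FGFR4 was 22.0% in the ANGPTL4 library and 34.7% in the control library. FGFR2 was 15.2% in the ANGPTL4 library and 14.4% in the control library, and FGFR1 was 3.35% in the ANGPTL4 library and 4.57% in the control library. The level of FGFR4 per level of FGFR3 was 0.371 in the ANGPTL4 library and 0.751 in the control library. The ratio of these 2 values, which no scaling of a whole library can alter, was 0.494 (95% interval 0.317 to 0.761). It was the farthest from 1 among the 45 pairs of the 10 receptors, and the interval is not adjusted for that.

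**Figure D3:**
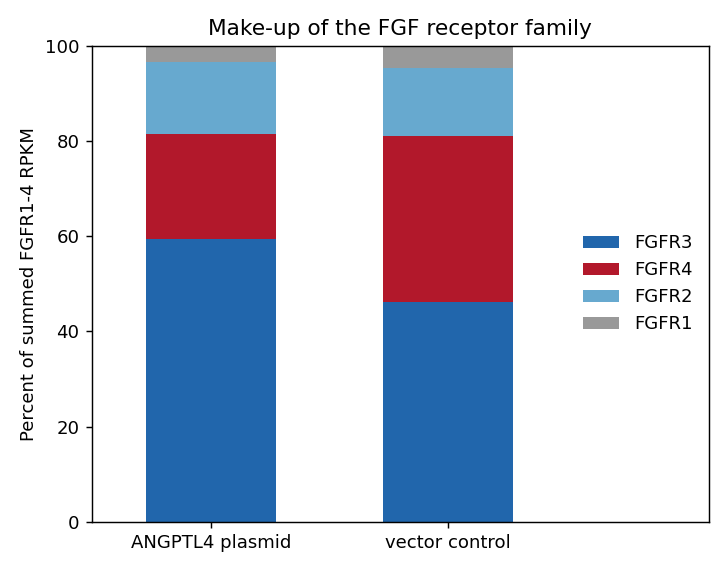
Share of each FGF receptor in the summed RPKM of FGFR1 to FGFR4, in percent, in the ANGPTL4 plasmid library (left) and the vector control library (right), 1 library each. FGFR4 is 22.0% in the ANGPTL4 library and 34.7% in the control library, and FGFR3 is 59.4% in the ANGPTL4 library and 46.3% in the control library.

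MET lay between these receptors in size of difference and had the reads to give it a narrow interval. MET, the receptor of hepatocyte growth factor, is annotated on chromosome 7 from 116312444 to 116438440 (hg19). Its level was 23.1 RPKM in the ANGPTL4 library (21.2 to 25.2, 531 reads) and 32.6 RPKM in the control library (31.0 to 34.3, 1523 reads). The intervals of the 2 levels were apart. The ratio was 0.709 (0.641 to 0.783), or 1.41-fold lower, with a log2 ratio of -0.48, or -0.37 relative to the median gene. Relative to EGFR, the most abundant receptor tyrosine kinase of these cells, MET was at 0.367 in the ANGPTL4 library and 0.533 in the control library, a ratio of 0.688 (0.616 to 0.769). EGFR itself was at 63.0 RPKM in the ANGPTL4 library and 61.2 RPKM in the control library, with a ratio of 1.03 (0.982 to 1.08).

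The 250 bases before the annotated start of FGFR4, MET and FGFR3 are shown because these 3 receptors span the range from the largest difference to none. They are RefSeq sequences of build GRCh38.p14, all on the + strand, 5′ to 3′, at chr5:177086665-177086914 for FGFR4, chr7:116671946-116672195 for MET and chr4:1793043-1793292 for FGFR3, and the build differs from the hg19 of the RPKM tables. Capitals mark GGGCGG on either strand, the 6-base GC box.
FGFR4: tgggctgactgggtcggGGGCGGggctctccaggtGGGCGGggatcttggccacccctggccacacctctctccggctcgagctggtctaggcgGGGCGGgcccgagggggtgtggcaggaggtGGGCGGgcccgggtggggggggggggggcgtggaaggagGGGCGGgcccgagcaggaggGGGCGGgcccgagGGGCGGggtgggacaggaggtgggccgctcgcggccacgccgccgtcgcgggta
MET: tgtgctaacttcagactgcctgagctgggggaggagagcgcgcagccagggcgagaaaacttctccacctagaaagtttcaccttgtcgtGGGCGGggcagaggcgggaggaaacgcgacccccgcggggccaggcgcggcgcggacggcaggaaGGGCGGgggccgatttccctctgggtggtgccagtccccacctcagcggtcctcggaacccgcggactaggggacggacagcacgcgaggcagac
FGFR3: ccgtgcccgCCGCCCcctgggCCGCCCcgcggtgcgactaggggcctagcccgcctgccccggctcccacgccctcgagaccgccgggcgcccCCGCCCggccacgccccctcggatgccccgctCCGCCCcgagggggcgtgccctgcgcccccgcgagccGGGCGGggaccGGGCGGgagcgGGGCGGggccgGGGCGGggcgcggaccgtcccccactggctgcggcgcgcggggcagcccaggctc
The FGFR4 window held 24 CpG sites and 7 GC boxes, the MET window 24 CpG sites and 2 GC boxes, and the FGFR3 window 40 CpG sites and 8 GC boxes. Over all 35116 promoter windows in the RefSeq table the median was 11 CpG sites, and 42.6% held a GC box. A window was used for 9 of the 10 receptors, with FGFR1 left out, and where a gene had several the outermost was taken. Among these the window of IGF1R held the most CpG sites, 48, and that of AXL the fewest, 4. Methylation was not measured in these libraries, and the counts describe the letters alone.

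The receptors of insulin-like growth factors and insulin differed by less. IGF1R, on chromosome 15 from 99192200 to 99507759, was at 12.6 RPKM in the ANGPTL4 library (11.6 to 13.7, 550 reads) and 14.8 RPKM in the control library (14.0 to 15.6, 1314 reads). Its ratio was 0.851 (0.769 to 0.941) and its log2 ratio -0.22, or -0.11 relative to the median gene. INSR, on chromosome 19 from 7112266 to 7294045, was at 1.01 RPKM in the ANGPTL4 library (0.697 to 1.41) and 1.18 RPKM in the control library (0.936 to 1.47), with a ratio of 0.853 (0.554 to 1.29) and a log2 ratio of -0.0078 relative to the median gene. IGF1R was 12.5 times as high as INSR in the ANGPTL4 library and 12.6 times in the control library, and the ratio of these values was 0.997 (0.651 to 1.56).

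The ligand IGF2, unlike IGF1R, was higher in the ANGPTL4 library. IGF2, a growth factor that binds IGF1R and one form of the insulin receptor, was at 494.9 RPKM in the ANGPTL4 library (11168 reads) and 300.4 RPKM in the control library (13779 reads). The ratio was 1.65 (1.61 to 1.69), and the log2 ratio 0.72. The overlapping rows IGF2-AS, INS-IGF2 and AC132217.4 reached at most 2.49 RPKM in either library, though reads they share with IGF2 may have been assigned either way. The level of IGF2 per level of IGF1R was 39.3 in the ANGPTL4 library and 20.3 in the control library. Of the 11 listed genes for ligands and binding proteins of this system, which include IGF2R, 8 were measured. IGF2 was the only one to pass the 1.5-fold size, against 12.3% of all measured genes in either direction. IGF2R was at 17.1 RPKM in the ANGPTL4 library and 16.7 RPKM in the control library. Its ratio was 1.03, with no interval because its reads could not be settled. IGFBP4, a binding protein that holds IGFs away from their receptor, was at 88.4 RPKM in the ANGPTL4 library and 74.4 RPKM in the control library, with a ratio of 1.19 (1.08 to 1.31). IGF1 and INS were listed at 0 in both libraries.

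EPHA2, AXL and DDR1 had modest ratios below 1. EPHA2, on chromosome 1 from 16450832 to 16482582, binds ephrin-A ligands on neighbouring cells. It was at 20.8 RPKM in the ANGPTL4 library (18.5 to 23.4, 280 reads) and 24.4 RPKM in the control library (22.5 to 26.3, 666 reads), with a ratio of 0.855 (0.741 to 0.984) and a log2 ratio of -0.11 relative to the median gene. The level intervals of EPHA2 overlapped. AXL, on chromosome 19 from 41725108 to 41767671, was at 10.9 RPKM in the ANGPTL4 library (9.34 to 12.6, 181 reads) and 13.6 RPKM in the control library (12.4 to 14.9, 461 reads). Its ratio was 0.798 (0.668 to 0.950), and its log2 ratio -0.30, or -0.19 relative to the median gene. DDR1, on chromosome 6 from 30844198 to 30867933, was at 31.1 RPKM in the ANGPTL4 library (29.1 to 33.1, 916 reads) and 34.5 RPKM in the control library (33.0 to 36.0, 2067 reads). Its ratio was 0.901 (0.832 to 0.974). Relative to the median gene its log2 ratio was -0.03, and after upper-quartile scaling it was 0.01, so its direction depended on the scaling.

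Ratios between receptors within a library, which scaling cannot move, differed for some pairs with FGFR4 or MET. Of the 45 pairs among the 10 receptors, 9 had a ratio that differed between the libraries with an unadjusted 95% interval leaving out 1. FGFR4 was in 5 of these pairs and MET in 4, and no pair without FGFR4 or MET was among them. The pairs reuse the same 10 receptors and are not independent, and the share among pairs of all measured genes was not computed. FGFR4 and MET also had the lowest single ratios among receptors whose interval left out 1, so the counts restate that in part. FGFR4 was lower relative to FGFR3, DDR1, EPHA2, IGF1R and AXL, with values from 0.494 to 0.629. Relative to MET (0.708, 0.481 to 1.02), FGFR1, FGFR2 and INSR the interval for FGFR4 included 1, so these pairs are not settled. MET was lower relative to FGFR3, DDR1, EPHA2 and IGF1R, with values from 0.697 to 0.833, and its intervals with AXL, FGFR1, FGFR2 and INSR included 1. MET per level of DDR1, for example, was 0.744 in the ANGPTL4 library and 0.945 in the control library (ratio 0.787, 0.692 to 0.894).

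Few FGF genes were measured, and the MET ligand was not. Of 22 FGF genes 12 were at 0 in both libraries and 2 were measured, FGF2 and FGF11. FGF2 is a ligand of several FGF receptors. It was at 1.28 RPKM in the ANGPTL4 library (28 reads) and 2.63 RPKM in the control library (117 reads). FGF2 was the 1 FGF past the 1.5-fold size, where 9.25% of all measured genes were lower by that size. Rows overlapping FGF2 reached at most 0.508 RPKM in either library, and reads they share with FGF2 may have been assigned either way. FGF11, an FGF that stays inside the cell, was at 5.72 RPKM in the ANGPTL4 library and 5.36 RPKM in the control library. The MET ligand HGF was listed at 0 in both libraries. GAS6, the ligand of AXL, was at 5.47 RPKM in the ANGPTL4 library and 7.71 RPKM in the control library, a ratio of 0.710 with no interval because its reads could not be settled. The other AXL ligand, PROS1, was at 0.0699 RPKM in the ANGPTL4 library (1 read) and 0.172 RPKM in the control library (5 reads).

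Ephrins and collagens gave both directions. Of 8 ephrins 6 were measured, 3 with a log2 ratio above 0 and 3 below, where 64.4% of all measured genes were below. EFNB2, the most abundant, was at 28.6 RPKM in the ANGPTL4 library and 24.6 RPKM in the control library (ratio 1.16, 1.03 to 1.31). EFNB1 was at 9.80 RPKM in the ANGPTL4 library and 10.7 RPKM in the control library. EFNA4, a ligand of EPHA2, was at 0.979 RPKM in the ANGPTL4 library (4 reads) and 2.77 RPKM in the control library (23 reads). It was the 1 ephrin past the 1.5-fold size, where 9.25% of all measured genes were lower by that size. The interval of its ratio, 0.0889 to 1.03, included 1. The annotated region of EFNA4 overlaps rows of EFNA3, which makes its reads uncertain. Of 12 collagen genes 8 were measured, with none past the 1.5-fold size, against 12.3% of all measured genes in either direction. COL4A1, a basement membrane collagen of a type that DDR1 binds, was at 40.8 RPKM in the ANGPTL4 library and 40.0 RPKM in the control library, and COL4A2 at 45.4 RPKM in the ANGPTL4 library and 51.1 RPKM in the control library.

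None of the measured modulators of FGF and HGF passed the 1.5-fold size, against 12.3% of all measured genes in either direction. Of the 11 co-receptors and modulators of FGF 6 were measured. The heparan sulfate proteoglycans SDC4 and SDC1, which hold FGFs at the cell surface, were the most abundant. SDC4 was at 124.4 RPKM in the ANGPTL4 library and 167.0 RPKM in the control library (ratio 0.745, 0.693 to 0.799), and SDC1 at 51.9 RPKM in the ANGPTL4 library and 64.6 RPKM in the control library. KLB, the co-receptor that FGFR4 uses for FGF19, was listed at 0 in both libraries. Of 8 genes for HGF, its activating proteases, their inhibitors and partners of MET, 5 were measured. SPINT1, an inhibitor of HGF-activating proteases, was at 66.2 RPKM in the ANGPTL4 library and 70.5 RPKM in the control library. CD44, a surface glycoprotein that can act as a co-receptor of MET, was at 54.7 RPKM in the ANGPTL4 library and 46.1 RPKM in the control library (ratio 1.19, 1.12 to 1.26).

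Downstream of the receptors, 62 measured genes were listed as adaptors, effectors, negative regulators or ERK targets. Of these 1, EGR1, passed the 1.5-fold size on the RPKM + 1 scale, against 12.3% of all measured genes in either direction. By the plain RPKM ratio PIK3CA (0.625, 0.502 to 0.772) and GAB2 (1.57, 0.884 to 2.77) were also past 1.5-fold. The share of all genes past that size by plain ratio was not computed. Of 26 measured adaptors and effectors 19 had a log2 ratio below 0, where 64.4% of all measured genes did. Their median was -0.11, the same as that of all measured genes to 2 decimals. The phosphatase PTPN11, which links receptors to RAS, was at 36.6 RPKM in the ANGPTL4 library and 43.6 RPKM in the control library. STAT3, a transcription factor activated by receptor signals, was at 28.5 RPKM in the ANGPTL4 library and 34.1 RPKM in the control library. The adaptor FRS2, which docks on FGF receptors, was at 3.53 RPKM in the ANGPTL4 library and 3.66 RPKM in the control library. Of 28 measured negative regulators and turnover genes 16 were below 0, against the same 64.4% of all, with a median of -0.07. ERRFI1, an inhibitor of EGFR-family kinases, was at 116.3 RPKM in the ANGPTL4 library and 131.5 RPKM in the control library, and the receptor phosphatase PTPRF at 48.4 RPKM in the ANGPTL4 library and 58.2 RPKM in the control library.

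Target genes of ERK signalling lay on both sides of 0. Of 13 measured targets 7 had a log2 ratio above 0 and 6 below, where 64.4% of all measured genes were below. The median of the targets was 0.03. EGR1, an immediate early transcription factor, was at 20.7 RPKM in the ANGPTL4 library and 11.5 RPKM in the control library (log2 ratio 0.79). By the mean of the 2 libraries the most abundant were MYC, at 246.8 RPKM in the ANGPTL4 library and 263.7 RPKM in the control library, and IER3, at 240.6 RPKM in the ANGPTL4 library and 204.7 RPKM in the control library. The members SPRY4, DUSP6 and ETV4, feedback and target genes of FGF signalling, are named with their values known. SPRY4 was at 16.6 RPKM in the ANGPTL4 library and 11.9 RPKM in the control library (ratio 1.40, 1.21 to 1.61), and ETV4 at 24.1 RPKM in the ANGPTL4 library and 20.4 RPKM in the control library (ratio 1.18, 1.02 to 1.37). DUSP6 was at 36.0 RPKM in the ANGPTL4 library and 38.8 RPKM in the control library, with an interval of the ratio that included 1. Other listed genes had intervals wholly below 1, among them the target SPRED1 (ratio 0.769, 0.588 to 0.998). The negative regulator DUSP5 had a ratio of 0.720 (0.631 to 0.820).

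The remaining human receptor tyrosine kinases gave a frame for the 10. Of 48 others, 17 were measured and 11 were at 0 in both libraries. None passed the 1.5-fold size on the RPKM + 1 scale, against 12.3% of all measured genes in either direction. Their median log2 ratio was -0.03, with 10 below 0 and 7 above. Of the 16 with settled reads, 4 had an interval wholly below 1, 1 wholly above 1 and 11 including 1. As a share of all 9557 measured genes with settled reads, intervals wholly below 1 were 27.8% and those wholly above 1 were 8.30%. By the mean of the 2 libraries EPHB4, an ephrin-B receptor, was next to EGFR, at 10.2 RPKM in the ANGPTL4 library and 13.7 RPKM in the control library (ratio 0.746, 0.634 to 0.874). EPHB2, another ephrin-B receptor and the one with an interval wholly above 1, was above EPHB4 in the ANGPTL4 library, at 12.5 RPKM in the ANGPTL4 library and 10.1 RPKM in the control library (ratio 1.23). EPHA8 was low, at 0.462 RPKM in the ANGPTL4 library (8 reads) and 1.08 RPKM in the control library (38 reads). Its plain ratio of 0.428 (0.172 to 0.931) was below the 0.502 of FGFR4, while its log2 ratio of RPKM + 1 was -0.51. The difference between the medians of the 2 receptor lists was not tested, since the receptors of each list share the same 2 libraries.

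**Figure D4:**
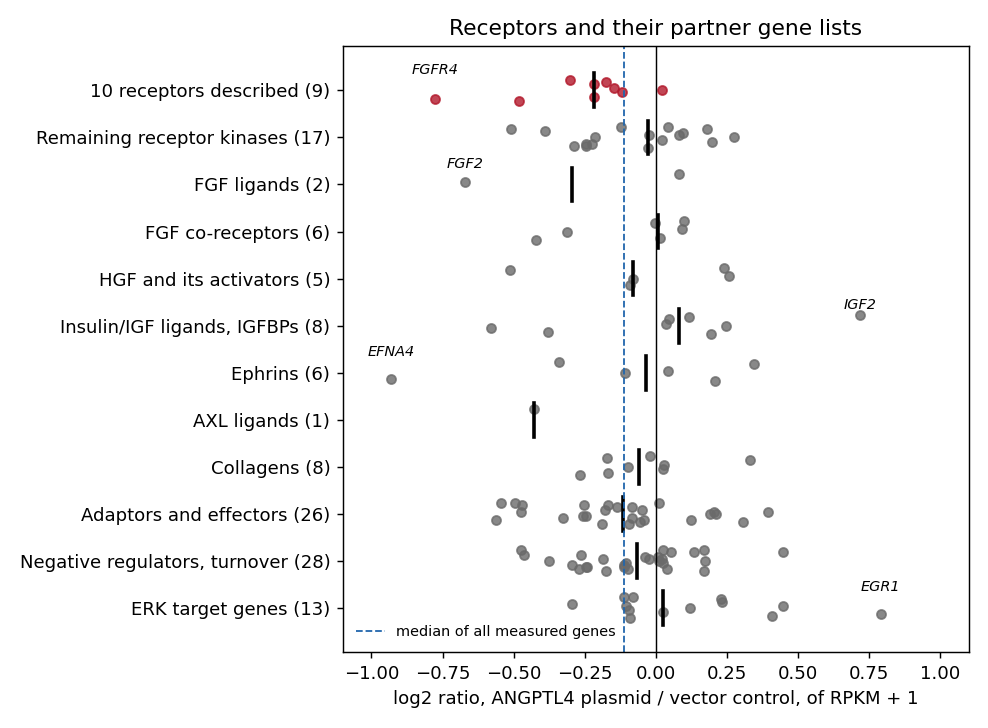
log2 ratio of RPKM + 1, ANGPTL4 plasmid library over vector control library, for each measured gene (points) of the receptors (red) and of the partner lists (grey), with the number measured in parentheses; black ticks are list medians and the dashed line is the median of all measured genes (-0.11). Genes past the 1.5-fold size are named: FGFR4, FGF2 and EFNA4 on the lower side, IGF2 and EGR1 on the higher.

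Reads of the receptors had little chance of belonging to other genes. Of all 50-base stretches in the annotated transcripts of each receptor (GENCODE release 29), the share found on the same strand in transcripts of another gene ranged from 0% for FGFR3, IGF1R and INSR to 0.699% for AXL. FGFR2, FGFR3, FGFR4 and MET overlapped no other row of the tables. Rows overlapping the other receptors reached at most 0.337 RPKM in either library. The read length and the use of strand are not given in the sources used here, so 50 bases is an assumed length.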

How the data were processed

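Total RNA was extracted with TRIzol, per the labels' protocols, and 2 libraries were sequenced, grouped by the transfection in their labels. Each deposited table lists RPKM for 1 library, per the file headers. The submitters' processing notes name hg19. Read length, strand use, annotation release, counter and aligner are not given in the sources used here. Since RPKM is relative to the whole library, a few abundant genes can shift all others.

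Rows of the same symbol were summed. Library totals were the smallest at which the 13 mitochondrially encoded protein genes became whole reads (tolerance 0.001), and the exon length of a gene was the one nearest its GENCODE release 29 length at which both libraries gave whole reads (tolerance 0.0001). A length was settled when no other candidate lay within 1.25-fold, which held for 123 of 137 measured single-row genes of the lists. Intervals of a ratio are Clopper-Pearson intervals of the reads, those of a level Poisson intervals, those of 2 genes in 1 library Clopper-Pearson intervals scaled by exon length, and those of a ratio between genes set against the other library conditional odds ratio intervals, all at 95%. Measured means at least 1 RPKM in at least 1 library, and the pseudocount was 1 RPKM. Computation used Python 3.11.15, numpy 2.4.6, scipy 1.17.1 and pandas 2.3.3. The procedures were tested on simulated libraries.

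The members and gene lists were chosen with earlier results of these data known, so the lists are descriptions and no set was tested. Named genes are all 10 receptors, the 2 most abundant of each partner list, and members of these lists at least 1.5-fold apart. Others, such as HGF, KLB, FRS2, SPRY4, DUSP6, ETV4, EPCAM, EPHB2, EPHA8 and IGF2R, were added with values known. Alternatives were pseudocounts of 0.1 and 5 RPKM, other minimums, 3 scalings, 1 row per symbol and centring by exon length and GC content. The marker PECAM1 was not analysed here.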

Additional observations from a re-analysis of the deposited data

How the results depend on the processing

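FGFR4 had log2 ratios from -0.97 to -0.42 under the 7 alternatives that recompute single receptors. A pseudocount or 1 row per symbol cannot change the sign of any receptor. The scalings and centrings gave FGFR4 values from -0.76 to -0.66. These shifts are too small to bring it to 0, so its direction was not put to a test. FGFR3 ranged from 0.01 to 0.16, but these alternatives could not have put it below 0. Each scaling and centring raised its ratio. Its counting interval included 1. MET ranged from -0.49 to -0.32. The count of receptors at least 1.5-fold lower was 0 with a pseudocount of 5 RPKM, which shrinks the ratio of FGFR4 by construction, and 1 under each other setting. The median log2 ratio of the receptors was -0.11 after centring on the median gene and -0.064 after upper-quartile scaling, which moved the median of all measured genes from -0.11 to 0.03. Under that scaling DDR1 was at 0.01 and 7 of the 9 measured receptors were below 0. Centring on genes of like exon length and GC content, an alternative chosen after seeing the data, gave a median of -0.12, with FGFR4 at -0.71 and MET at -0.32. No paired analysis was possible because each group held 1 library, and no replicate could be left out. Depth limits FGFR1, INSR, FGFR4 and FGFR2 most, with 16 reads for FGFR1, 34 for INSR, 40 for FGFR4 and 43 for FGFR2 in the ANGPTL4 library.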
